A study of Homo sapiens with 12 samples.

Results

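The genes described here encode the core machinery that starts transcription of protein-coding genes: the subunits of Mediator, RNA polymerase II and the general transcription factors. They were taken by symbol from the RefSeq coding genes of the GRCh38.p14 gene table, as MED followed by a number, names starting with POLR2 or GTF2, and TAF followed by a number. This gave 76 genes, of which 75 were placed on a chromosome and 67 had a row in the table of H3K9ac regions within 1 kb of an annotated gene end. Where several rows lay there, the row with the highest mean over the 6 libraries stood for the gene, and the 67 genes had 67 different rows out of 47648. Of all coding genes placed on a chromosome, 12337 of 19866 (62.1%) had such a row, against 89.3% of these genes.

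RNA polymerase II cannot find a promoter by itself. TFIID, made of the TATA-binding protein and the TAF subunits, recognises the core promoter. TFIIA, TFIIB, TFIIE, TFIIF and TFIIH help to place the polymerase and open the DNA, and Mediator links activators bound at enhancers to this assembly. Leukaemia cells with a KMT2A fusion are known to lean on Mediator and its cofactors at the genes that keep them immature.

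The cells were MOLM-13, a human acute myeloid leukaemia line with a KMT2A-MLLT3 fusion. One group of 3 libraries came from cells given the solvent DMSO, and the other group of 3 from cells given 4 µM WM-1119, an inhibitor of the lysine acetyltransferase KAT6A, for 4 days. Both groups are 1 cell line, with no second line or normal cells beside it, and the labels do not say whether the replicates were separate cultures, so the p-values describe the scatter of these libraries, which may be technical. Chromatin immunoprecipitation sequencing measured H3K9ac, acetylation of lysine 9 on histone H3, a mark found at active promoters and enhancers. Values are CPM, reads scaled to a fixed total of 1000000 over the listed regions, so a gain or loss shared by the whole genome is not visible. Fewer cells with the mark and less mark per cell cannot be told apart.

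The libraries differed in depth, from 719329 reads in regions in DMSO replicate 1 and 1298443 in DMSO replicate 2 to between 4542322 and 12705349 in the other 4. Rows with a mean below the median took 8.95% and 7.19% of CPM in DMSO replicates 1 and 2 and 2.19% to 3.35% in the other 4. A row standing for one of the 67 genes held a median of 43 reads in DMSO replicate 1 and 1025 in WM-1119 replicate 3. Among markers of the line, all 8 myeloid genes had a row, but CD33 and KIT held only 3.67 and 5.75 CPM on average. The 8 together held 2053 to 3165 CPM with DMSO and 2600 to 3201 CPM with WM-1119. Of 6 markers of other blood lineages, GATA1 and HBB had no row and the other 4 together held 86.5 to 98.7 CPM with DMSO and 63.6 to 77.5 CPM with WM-1119. The 4 markers listed as non-blood together held 33.1 to 58.4 CPM with DMSO and 40.1 to 49.1 CPM with WM-1119. PECAM1 held 35.2 CPM of this on average, and EPCAM, KRT18 and COL1A1 held 1.64, 2.83 and 4.83 CPM. Blood cells also express PECAM1, so the sum cannot be read as signal of non-blood cells. The part of these markers in the results was not tested.

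The genes without a row were GTF2H2, GTF2H2C, GTF2IRD2, GTF2IRD2B, POLR2J, POLR2J2 and POLR2J3, which have near-identical copies elsewhere in the genome, and GTF2A1L, a relative of the TFIIA subunit gene known from testis. A read that maps equally well to several copies can be lost in alignment, and its part here was not tested. GTF2I, which had a row, also has near-identical pseudogene copies, so its values are uncertain. GTF2H2C_2 was listed only on a sequence outside the chromosomes and was not used here.

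The rows lay over the starts of the genes. Gene starts could be read from the RefSeq promoter table for 48 of the 67 genes, and in 47 of them the row held the start. The exception was GTF2H4, a TFIIH subunit gene, whose strongest row began 5791 bases downstream of its start, beside the neighbouring gene VARS2. In the 47 rows a median of 783 bases before the start and 1127 bases after it were covered, and 35 reached further into the gene than away from it. Of the 31 rows that belonged to 1 gene alone, 27 reached further into the gene, with medians of 508 bases before and 1118 bases after the start. Of the 16 rows that also lay within 1 kb of another coding gene's end, 8 did, with medians of 1195 and 1457 bases.

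**Figure D1:**
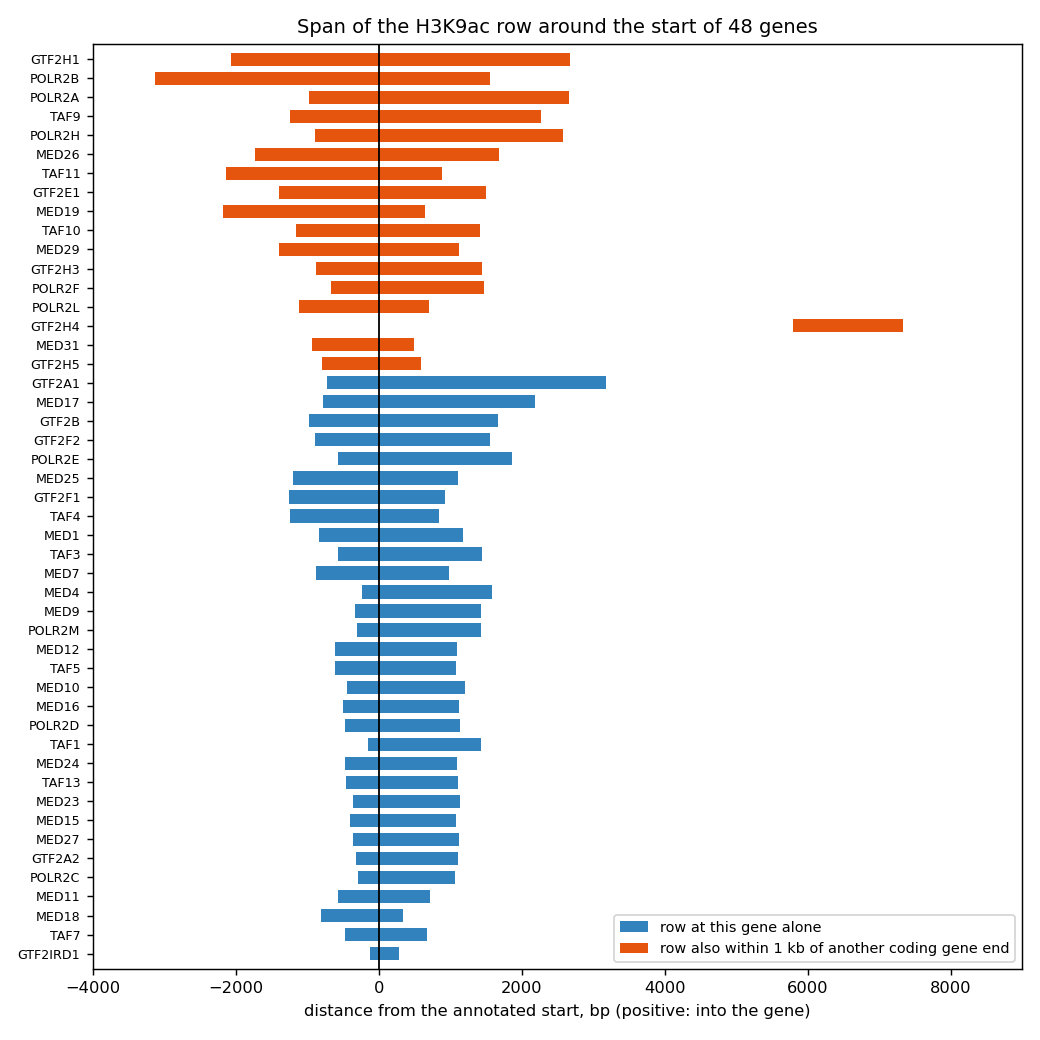
Span of the H3K9ac row of 48 genes along the distance from the annotated start in bases (positive values lie inside the gene); bars are single rows, blue where the row belongs to 1 gene and orange where another coding gene's end lies within 1 kb. In 47 of 48 genes the bar crosses the start, and the row of GTF2H4 lies wholly downstream.

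Some of these rows were shared. Of the 67 rows 24 (35.8%) lay within 1 kb of the end of another coding gene. Of gene-end rows of the same mean 23.3% were shared. That share counts rows, whereas the first counts genes with 1 picked row each, and a shared row can be reached from each of its genes. The shares are therefore not alike, and no excess can be read from them. For such a row the reads of the neighbours cannot be told apart. The strongest shared rows were those of MED26 with SMIM7, POLR2B with NOA1, TAF9 with AK6 and RAD17, and MED22 with the ribosomal protein gene RPL7A. The 24 shared rows had a median width of 2541 bp and a median density of 35.5 CPM per kb, and the 43 others 1731 bp and 32.9 CPM per kb.

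The sequences below are the 250 bases before the start of 6 genes, from the RefSeq promoter table (GRCh38.p14), written 5′ to 3′ on the strand of the gene. They were picked after the values were seen, to show the strongest row (MED26), the row with the smallest p (POLR2L), the catalytic subunit (POLR2A), a pair of promoters with an ETS match (GTF2A1 and TAF1) and the weakest row (GTF2IRD1). Capitals mark matches, on either strand, to the GC box GGGCGG, the ETS motif CCGGAAG, the CCAAT box CCAAT or the E-box CACGTG.
MED26 (chr19:16628205-16628454, minus strand): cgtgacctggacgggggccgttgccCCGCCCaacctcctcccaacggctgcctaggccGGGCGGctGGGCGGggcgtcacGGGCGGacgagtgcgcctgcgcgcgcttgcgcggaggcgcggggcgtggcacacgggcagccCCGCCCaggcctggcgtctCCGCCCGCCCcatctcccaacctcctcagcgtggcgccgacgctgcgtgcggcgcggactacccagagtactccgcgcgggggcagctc
POLR2L (chr11:842530-842779, minus strand): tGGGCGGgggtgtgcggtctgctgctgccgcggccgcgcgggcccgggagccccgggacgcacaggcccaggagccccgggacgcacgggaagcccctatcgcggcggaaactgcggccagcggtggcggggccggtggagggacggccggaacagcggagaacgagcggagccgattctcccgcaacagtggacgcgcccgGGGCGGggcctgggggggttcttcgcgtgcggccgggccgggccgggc
POLR2A (chr17:7484116-7484365, plus strand): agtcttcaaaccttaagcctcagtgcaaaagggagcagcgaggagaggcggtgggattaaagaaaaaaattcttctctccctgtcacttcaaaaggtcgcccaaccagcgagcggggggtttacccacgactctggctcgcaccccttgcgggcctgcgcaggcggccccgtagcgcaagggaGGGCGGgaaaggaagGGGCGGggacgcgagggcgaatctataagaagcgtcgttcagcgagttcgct
GTF2A1 (chr14:81221391-81221640, minus strand): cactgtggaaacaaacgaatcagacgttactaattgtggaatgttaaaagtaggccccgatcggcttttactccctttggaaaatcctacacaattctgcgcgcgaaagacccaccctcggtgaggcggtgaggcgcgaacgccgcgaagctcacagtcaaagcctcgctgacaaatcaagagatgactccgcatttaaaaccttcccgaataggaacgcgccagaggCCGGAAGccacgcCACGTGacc
TAF1 (chrX:71366107-71366356, plus strand): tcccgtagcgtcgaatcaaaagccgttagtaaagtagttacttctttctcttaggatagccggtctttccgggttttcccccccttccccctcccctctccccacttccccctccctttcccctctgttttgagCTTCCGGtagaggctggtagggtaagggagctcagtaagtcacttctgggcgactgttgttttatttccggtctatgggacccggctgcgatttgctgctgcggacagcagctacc
GTF2IRD1 (chr7:74453656-74453905, plus strand): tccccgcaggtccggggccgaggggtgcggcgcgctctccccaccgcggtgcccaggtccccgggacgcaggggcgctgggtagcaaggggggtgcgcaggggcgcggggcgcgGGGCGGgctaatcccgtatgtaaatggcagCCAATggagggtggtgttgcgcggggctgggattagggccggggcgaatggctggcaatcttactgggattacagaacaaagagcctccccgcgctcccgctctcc
The MED26 promoter held 7 GC boxes, some of them overlapping, and was 78.0% G and C. POLR2L was at 79.2% with 2 GC boxes, POLR2A at 59.6% with 2 and GTF2IRD1 at 71.2% with 1. GTF2A1 and TAF1 held no GC box and 1 ETS match each, at 53.2% and 54.8% G and C.

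Across the 48 promoters with a row, the median content of G and C was 58.4% and the median number of CpG pairs was 19, with a range of 8 to 47. Over the 13819 promoters of coding genes in the table these medians were 62.4% and 17, and over the 8964 other coding genes with a row they were 65.2% and 21. The ETS motif was found in 14 of the 48 (29.2%), beside 12.1% of all coding promoters and 16.6% of those of other genes with a row. The motif of YY1, AANATGGCG, was found in 4 (8.33%), beside 1.66% and 2.32%. The GC box was found in 60.4%, beside 56.0% and 68.8%, and the CCAAT box in 25%, beside 35.2% and 35.9%. The TATA box TATAAA was found in 8.33%, beside 9.63% and 5.71%. The NRF1 motif (GCGCAT followed by GCGC) stood in 4.17% (1.55% and 2.18%), the CRE TGACGTCA in 4.17% (2.41% and 3.07%), the E-box in 6.25% (7.87% and 9.30%) and the ZNF143 motif ACTACAA in 6.25% (2.91% and 3.66%). Each motif was searched on both strands, and the CRE, E-box and NRF1 motifs read the same on both. The 9 motifs were chosen after the files had been seen, and a match is not a binding site. The ETS matches were in GTF2A1, GTF2A2, GTF2F1, GTF2H1, GTF2H3, MED7, MED15, MED17, MED18, MED31, POLR2C, TAF1, TAF3 and TAF13.

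The rows of these genes were among the stronger ones of the table. The median row mean was 73.1 CPM, beside 38.9 CPM for other gene-end rows and 4.02 CPM for all tested rows. The lowest were GTF2IRD1 at 3.73 CPM and MED6 at 15.4 CPM. CPM grows with the width of a row, so levels of different genes are compared per length, and a highest or lowest mean below refers to the CPM of the whole row. Per length the median was 35.03 CPM per kb, beside 21.2 for other gene-end rows. These comparisons favour the genes described here. The strongest row at its ends stood for each of them, while the other gene-end rows were not picked in that way. The densest row was that of TAF2, a TFIID subunit that contacts promoter DNA, at 77.4 CPM per kb, followed by MED26 at 69.0, GTF2I at 60.5 and POLR2K at 59.5. TAF2 and POLR2K lie on chromosome 8, MED26 on chromosome 19 and GTF2I on chromosome 7. Levels were not corrected for the number of copies of a chromosome, and its part in this order was not tested. The least dense were GTF2IRD1 at 8.93, MED27 at 16.4 and TAF13 at 17.3 CPM per kb. The family medians were close together, at 33.9 CPM per kb for Mediator and for the polymerase, 35.9 for GTF2 genes and 34.7 for TAF genes.

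**Figure D2:**
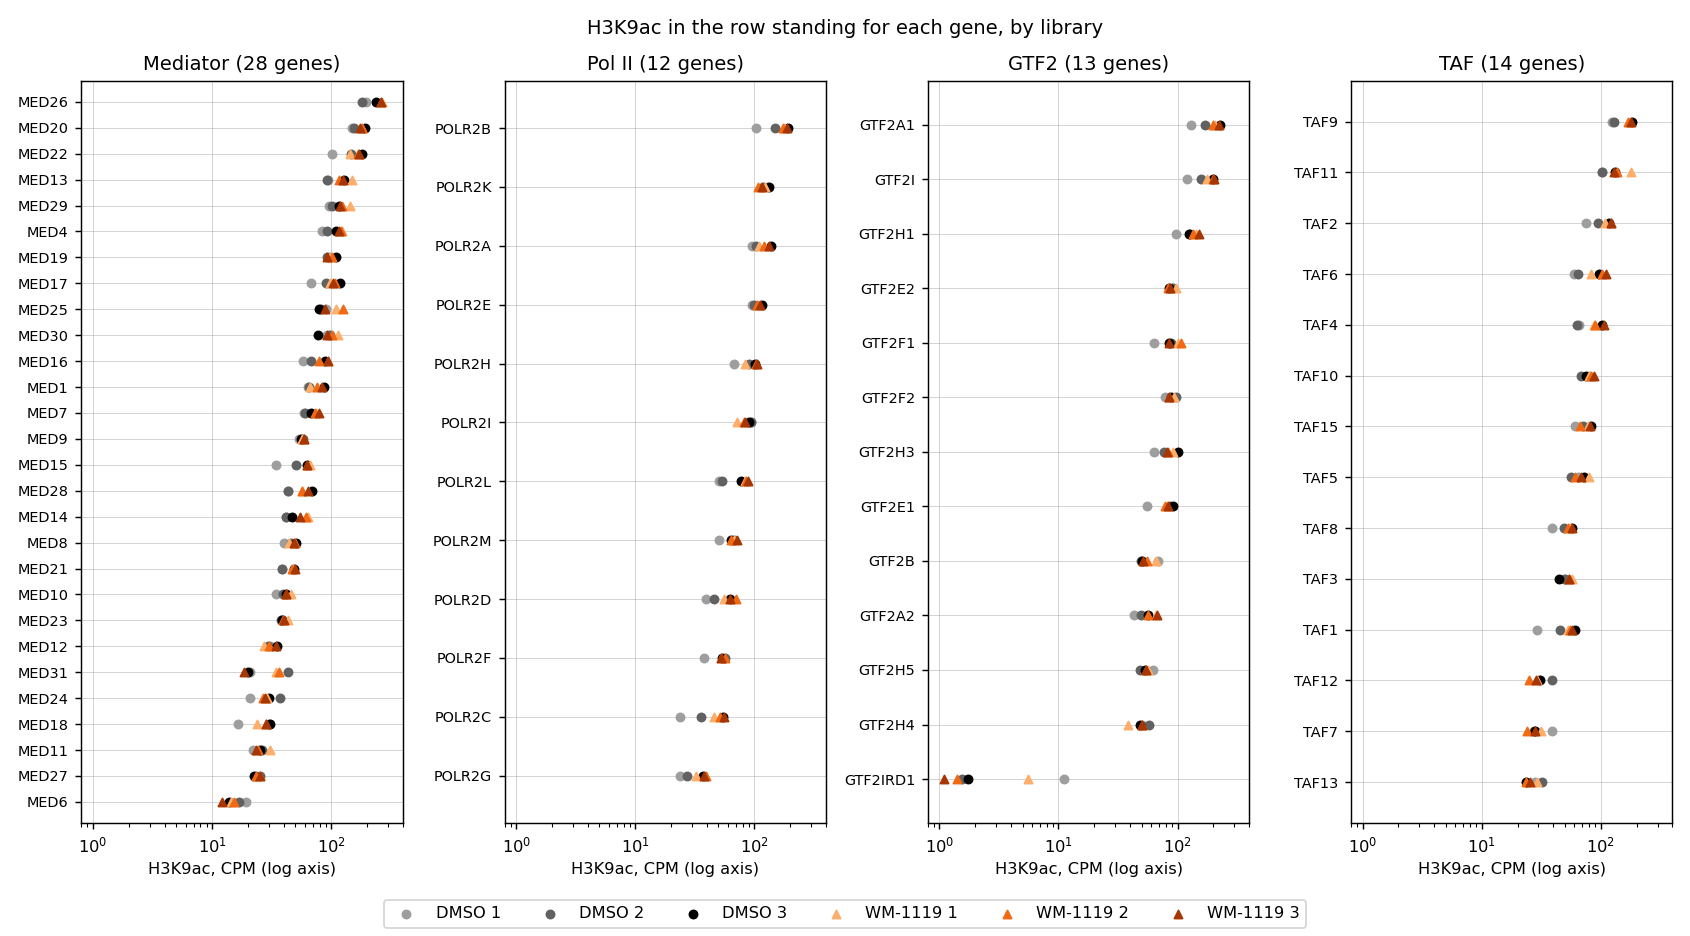
H3K9ac in CPM (log axis) in the row of each of the 67 genes, by family and sorted by mean; circles are the 3 DMSO libraries and triangles the 3 WM-1119 libraries. Most genes lie between 20 and 250 CPM, GTF2IRD1 stands apart at a mean of 3.73 CPM, and the palest circle, DMSO replicate 1, is often the leftmost point.

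With WM-1119 the H3K9ac of these genes did not change past the threshold. None of the 67 passed limma at an adjusted p under 0.05, in either direction, and the lowest limma adjusted p was 0.321, at POLR2L. Over all 44763 tested rows 0% passed as higher and 0.0603% as lower, and of gene-end rows with the same mean 0% and 0.0448%. At an unadjusted limma p under 0.05, 10 genes were higher and 0 were lower, and in edgeR on the recovered reads of 5 libraries 0 were higher and 0 lower. For all tested rows these shares in limma were 2.58% higher and 10.8% lower, and for gene-end rows of the same mean as these genes 11.5% higher and 1.4% lower. The 10 genes are 14.9% of the 67: MED4, MED14, MED15, MED25, MED26, POLR2B, POLR2C, POLR2L, TAF6 and TAF11. In 66 of the 67 genes the 95% interval of the log2 change lay within 1 on either side of 0, GTF2IRD1 being the exception. Tested on simulated data, the fit recovered 16% of 2-fold and 94% of 4-fold changes in this comparison among 43858 rows. The changes were put into 200 rows, with the spread between replicates set at a dispersion of 0.05. These rates hold for that setting and are not rates for the 67 genes.

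The signs were uneven without that threshold. The log2 change was above 0 in 56 of the 67 genes and below 0 in 11, with a median of 0.17 and a range of -0.45 to 0.53. It was above 0 in 47 after quantile normalization and in all 67 after median centring and in edgeR. Median centring adds the same 0.77 to the log2 change of every row, so each sign it turns follows from that constant. All tested rows had a median of -0.47, and 22.8% of them were above 0. Rows of the same mean at other gene ends were close to the genes, with a median of 0.16 and 78% above 0, and 38 of the genes lay above the median of their own such rows and 29 below. The median of these genes minus that of all rows was 0.64 as deposited and with median centring, 0.65 in edgeR and 0.09 with quantile normalization. Level and sign went together, here as in other gene-end rows. Above 0 were 46 of the 49 genes whose mean reached 50 CPM, and 10 of the 18 genes under that level. Of other gene-end rows, 1682 of 2675 were above 0 at 20 to 50 CPM, 2768 of 3303 at 50 to 100 CPM and 1853 of 1973 at 100 to 250 CPM.

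**Figure D3:**
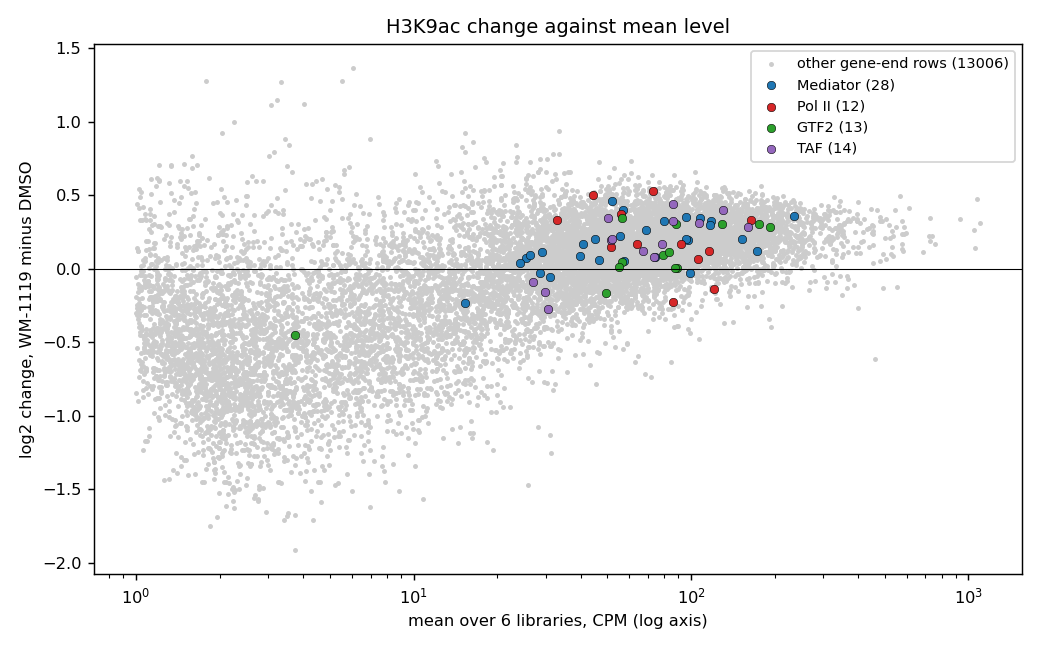
The log2 change (WM-1119 minus DMSO) against the mean over 6 libraries in CPM (log axis) for 13006 other gene-end rows (grey) and the 67 genes by family (colours). The genes lie inside the grey cloud, which itself slopes from values below 0 for weak rows to values above 0 for strong rows.

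The genes moved between libraries much as rows of the same mean did. The offset used here is the log2(CPM + 1) of a gene minus the median of the 100 other gene-end rows nearest to it in mean. Since the mean runs over these same 6 libraries, the offset is held near 0 on average, and only its differences between libraries are informative. Its median over the 67 genes was -0.08, 0.00 and 0.02 in the DMSO libraries, in the order of their numbers, and 0.04, -0.02 and 0.00 in those given WM-1119. The mean over the WM-1119 libraries minus that over the DMSO libraries was 0.024, which is less than the spread of 0.043 (SD) between libraries of a group. Without DMSO replicate 1 it was -0.0008. The spread between genes was widest in DMSO replicate 1, the shallowest library, with quartiles of -0.23 and 0.10, beside -0.08 and 0.08 in WM-1119 replicate 3.

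**Figure D4:**
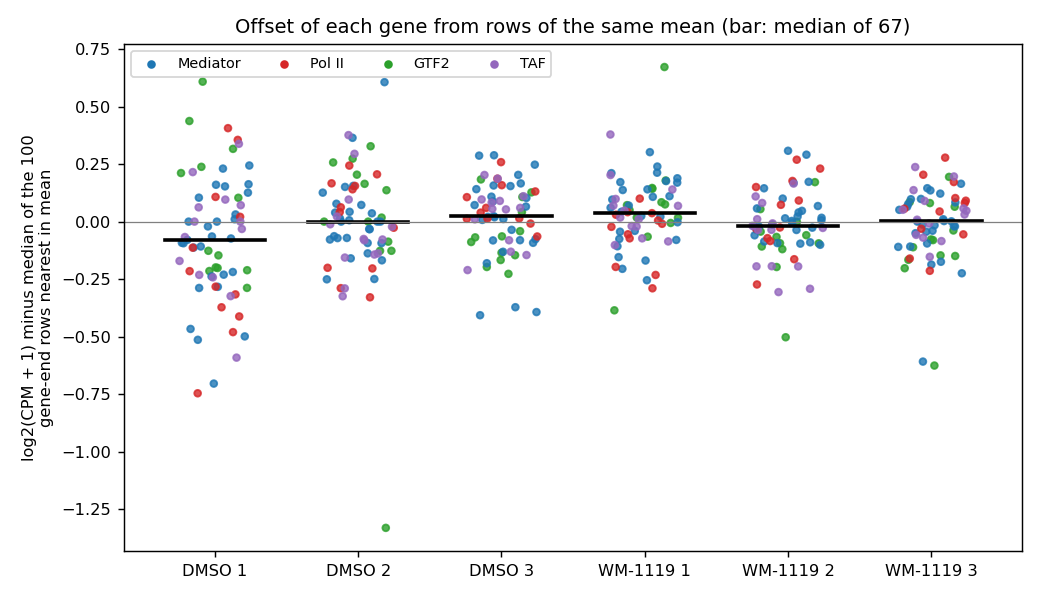
Offset of each of the 67 genes (points, coloured by family) from the median of the 100 gene-end rows nearest in mean, on the log2(CPM + 1) scale, in each of the 6 libraries; bars are medians over the genes. The bars lie between -0.08 and 0.04, and single genes spread most in DMSO replicates 1 and 2. Matching on the mean over the 6 libraries holds the average over libraries near 0.

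The size of the differences moved with the choice of DMSO libraries. The rows of the 67 genes together took 0.432% and 0.483% of CPM in these libraries and 0.563% in DMSO replicate 3, beside 0.556% to 0.566% in the 3 WM-1119 libraries. DMSO replicate 1 was the lowest of the 6 libraries in 41 of the 67 genes (and in 48.7% of rows of the same mean), and DMSO replicate 2 in 11 (and in 23.8% of such rows). DMSO replicate 3 was the highest in 20. DMSO replicates 1 and 2 are also the shallowest libraries and those with most CPM in weak rows, and the part of either in these values was not tested. Without DMSO replicate 1 the median log2 change of the genes was 0.10, with 48 above 0 and 19 below, beside 0.09 for rows of the same mean. Without DMSO replicate 2 it was 0.20, with 56 above 0 and 11 below, beside 0.14. With DMSO replicate 3 as the only control, 34 genes were above 0 and 33 below, with a median log2 change of 0.00, beside 0.06 for all rows and 0.01 for rows of the same mean. For that fit the single DMSO library is taken to vary as the WM-1119 libraries do. Without DMSO replicate 3 the median was 0.24, beside 0.25 for rows of the same mean, and 24 of the 67 genes passed limma at an adjusted p under 0.05, all higher. That fit called 5.28% of all 45326 tested rows higher and 38% lower, and 23.7% of rows of the same mean higher and 2.72% lower.

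**Figure D5:**
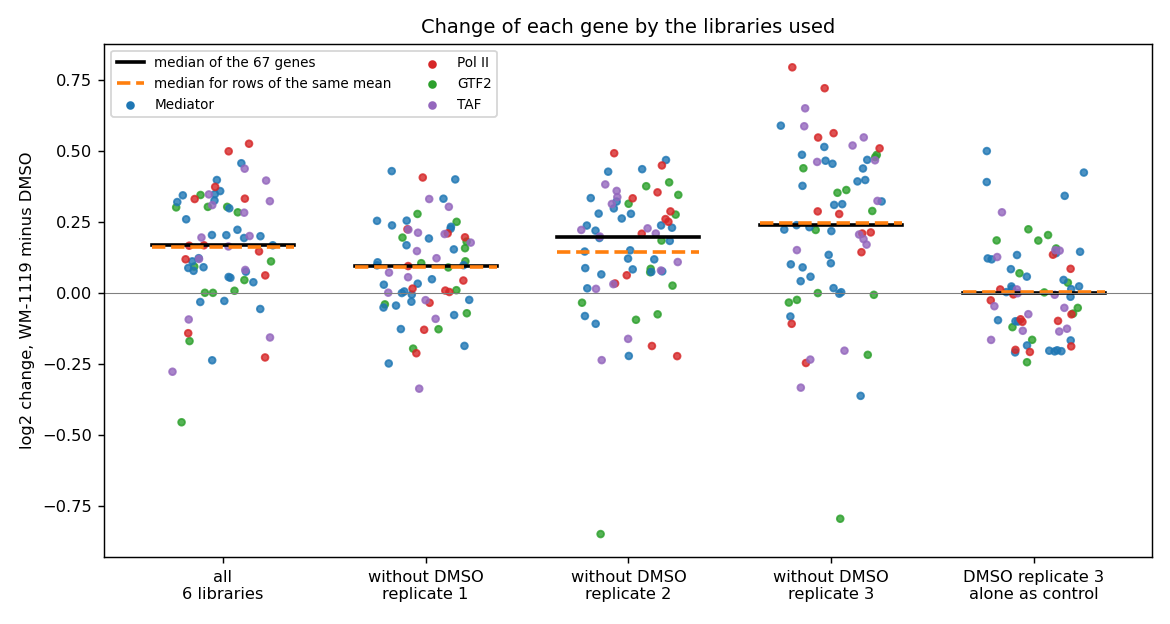
The log2 change of each of the 67 genes (points, by family) with all 6 libraries, with 1 DMSO library left out, and with DMSO replicate 3 as the only control; black bars are medians of the genes and dashed bars medians for rows of the same mean. The black bar goes from 0.24 without DMSO replicate 3 to 0.00 with that library alone, and the dashed bar goes with it.

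Mediator has a head and a middle that bind the polymerase, a tail that meets activators, a backbone subunit that joins them and a kinase module that comes and goes. All 28 Mediator genes had a row, 24 with a log2 change above 0 (24 after quantile normalization and all 28 after median centring and in edgeR), 4 below 0, and a median of 0.18, beside 0.15 for rows of the same mean. The 3 WM-1119 libraries lay above the 3 DMSO libraries in 7 of the 28 genes and below them in 0. Over all tested rows 3.76% had groups apart in the higher direction and 13.2% in the lower, and among rows of the same mean 16.4% and 2.63% did. Over all 67 genes the counts were 11 higher and 2 lower.

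MED26, which in mammals joins Mediator to elongation factors, had the strongest row of all 67 genes, at chromosome 19 position 16626529 to 16629932, over the promoter printed above. It held 197, 183 and 238 CPM in the DMSO libraries and 267, 260 and 262 CPM in the WM-1119 libraries. Every WM-1119 library was above every DMSO library, and DMSO replicate 3 came closest. The means were 206 ± 28.3 and 263 ± 3.66 CPM (SD, n = 3 per group), with a log2 change of 0.36 ± 0.15 (SE; adjusted p by limma = 0.34). With DMSO replicate 3 as the only control the log2 change was 0.15. The row is shared with SMIM7.

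MED14, the backbone of the complex, held 41.7, 41.6 and 47.1 CPM with DMSO and 64.3, 61.4 and 54.6 CPM with WM-1119, at chromosome X position 40734037 to 40736726. The groups were apart, and the WM-1119 libraries differed more among themselves than the DMSO libraries did. Its log2 change of 0.46 ± 0.19 (SE; adjusted p by limma = 0.352) was the highest in Mediator, against 0.12 in rows of the same mean, and was 0.34 with DMSO replicate 3 alone. With 1 library left out it ran from 0.41 to 0.52.

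In the middle all 8 genes were above 0 (6 after quantile normalization), with a median of 0.19 (0.15 in rows of the same mean). Groups were apart in MED4, MED7, MED10 and MED26, all higher, beside 16.4% of rows of the same mean as the 67 genes. MED4 went from 95.2 ± 13.8 to 120 ± 4.26 CPM and MED7 from 62.8 ± 4.92 to 75.3 ± 3.08 CPM (SD, n = 3 per group). Their adjusted p by limma was 0.365 and 0.439. Their log2 changes of 0.35 and 0.26 were 0.12 and 0.14 with DMSO replicate 3 alone. MED1, the subunit that nuclear receptors contact, held 63.9, 65.5 and 86.9 CPM with DMSO and 66.3, 76.7 and 84.6 CPM with WM-1119. The groups overlapped almost fully, and its log2 change of 0.08 turned to -0.06 with quantile normalization. MED9 varied least of all 67 genes over the 6 libraries, with an SD of 0.04 on the log2 scale. MED31, with the lowest mean in the middle, varied most after GTF2IRD1, at 0.51: it held 20.9, 43.9 and 19.9 CPM with DMSO and 34.3, 36.2 and 18.7 CPM with WM-1119, so replicate 3 was lowest in both groups.

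In the head 6 of 8 genes were above 0 (all 8 after median centring and in edgeR), with a median of 0.08, beside 0.16 for rows of the same mean. MED20 had the highest mean, with 166 ± 23.0 CPM with DMSO and 180 ± 3.78 CPM with WM-1119 (SD, n = 3 per group). MED22 held 101.5, 146 and 183 CPM with DMSO and 145, 168 and 172 CPM with WM-1119, so DMSO replicates 1 and 3 were the lowest and the highest of the 6. MED6, at the hinge of head and middle, was the weakest Mediator row, with 16.7 ± 2.85 and 13.99 ± 1.66 CPM (SD, n = 3 per group) and overlapping groups. Its log2 change of -0.24 turned to 0.18 with quantile normalization, 0.54 with median centring and 0.10 in edgeR.

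In the tail and upper tail 8 of 9 genes were above 0 (all 9 with each other scaling), with a median of 0.22 (0.15 in rows of the same mean). MED15, a tail subunit that binds activators, held 34.8, 50.8 and 63.1 CPM with DMSO and 66.7, 62.2 and 62.7 CPM with WM-1119. DMSO replicate 3 lay among the WM-1119 libraries, and the log2 change went from 0.40 to 0.02 with that library as the only control. For MED25 and MED30 the value did not shrink in that way: with DMSO replicate 3 alone they stood at 0.43 and 0.39. MED25, the target of several viral and cellular activators, held 90.4, 82.4 and 79.7 CPM with DMSO and 111, 126 and 88.5 CPM with WM-1119, where replicate 3 was lower than the other two and the lowest WM-1119 library lay below DMSO replicate 1. MED29 had the highest tail mean, with 105 ± 10.7 and 129 ± 12.9 CPM (SD, n = 3 per group) and groups apart, in a row shared with PAF1 and SAMD4B. MED23, which receives signals through ELK1, held 38.9, 37.7 and 38.5 CPM with DMSO and 43.6, 39.1 and 40.1 CPM with WM-1119. Its groups were apart by a small margin, with a log2 change of 0.09 ± 0.21 (SE) and an interval of -0.33 to 0.50. MED27 had the lowest tail mean, at 23.8 ± 1.49 and 24.5 ± 1.04 CPM (SD, n = 3 per group).

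The kinase module was represented by MED12 and MED13. MED12, which activates the CDK8 kinase, held 30.6, 29.3 and 35.02 CPM with DMSO and 27.1, 29.9 and 34.4 CPM with WM-1119. The groups overlapped, with a log2 change of -0.05 ± 0.23 (SE) and an interval of -0.51 to 0.40; it was 0.05 with quantile normalization and 0.72 with median centring. MED13, which tethers the module to the core, went from 105 ± 19.8 to 131 ± 16.8 CPM (SD, n = 3 per group; adjusted p by limma = 0.376), and its log2 change of 0.32 was 0.02 with DMSO replicate 3 alone. Of the kinase genes outside the symbol rule, CDK8, CDK19 and CCNC had log2 changes of 0.23, 0.24 and 0.19, with a median of 0.23 that was 0.04 after quantile normalization.

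Of 15 POLR2 genes 12 had a row, 10 with a log2 change above 0 and 2 below (8 and 4 after quantile normalization, 12 and 0 after median centring and in edgeR), and their median was 0.17, the same as for rows of the same mean. Groups were apart in 1 gene in each direction. POLR2L, a small subunit that all nuclear polymerases share, held 50.05, 53.1 and 77.9 CPM with DMSO and 82.8, 85.9 and 88.6 CPM with WM-1119. DMSO replicate 3 was close to the WM-1119 libraries and far from the other DMSO libraries. The means were 60.4 ± 15.3 and 85.8 ± 2.93 CPM (SD, n = 3 per group), a log2 change of 0.53 ± 0.18 (SE), the highest of the 67 genes, which was 0.14 with DMSO replicate 3 alone. The row, at chromosome 11 position 841828 to 843646, is shared with TSPAN4.

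POLR2A, the largest subunit, whose tail is phosphorylated during transcription, held 95.9, 102 and 138 CPM with DMSO and 110, 121 and 132 CPM with WM-1119. DMSO replicate 3 was the highest of all 6, and the groups overlapped. The log2 change was 0.12 ± 0.17 (SE; interval -0.21 to 0.45; adjusted p by limma = 0.659) and turned to -0.07 with quantile normalization and to -0.20 with DMSO replicate 3 alone. POLR2B, the second catalytic subunit, had the highest polymerase mean and held 103, 148 and 194 CPM with DMSO and 178, 175 and 190 CPM with WM-1119. Again DMSO replicate 3 was the highest library, and the log2 change of 0.33 was -0.10 with that control alone. POLR2C, which starts the assembly of the enzyme and had the lowest core mean, held 23.6, 35.4 and 54.4 CPM with DMSO and 46.0, 51.9 and 55.6 CPM with WM-1119, with 0.50 for all libraries and -0.09 for DMSO replicate 3 alone.

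POLR2I, a subunit known for proofreading, was the other POLR2 gene with groups apart, in the lower direction. It held 94.5, 93.2 and 90.1 CPM with DMSO and 72.2, 82.4 and 83.0 CPM with WM-1119. Here DMSO replicate 3 lay with the other DMSO libraries. The means were 92.6 ± 2.28 and 79.2 ± 6.06 CPM (SD, n = 3 per group), with a log2 change of -0.23 ± 0.17 (SE; adjusted p by limma = 0.469), beside 0.17 in rows of the same mean. With median centring it was 0.55 and in edgeR 0.18, and the row is shared with OVOL3 and TBCB. POLR2K, another small shared subunit, went from 127 ± 7.10 to 115 ± 8.14 CPM (SD, n = 3 per group) with overlapping groups, a log2 change of -0.14 that was 0.63 with median centring and 0.31 in edgeR. The stalk genes POLR2D and POLR2G had log2 changes of 0.37 and 0.33, and means of 49.1 ± 12.4 and 29.2 ± 6.97 CPM with DMSO and 63.0 ± 7.37 and 36.5 ± 3.67 CPM with WM-1119 (SD, n = 3 per group). With DMSO replicate 3 alone they stood at 0.00 and -0.02. POLR2M, whose protein associates with the polymerase, went from 60.1 ± 8.90 to 67.3 ± 3.60 CPM (SD, n = 3 per group).

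Of 19 GTF2 genes 13 had a row, 11 above 0 and 2 below, with a median of 0.09, beside 0.19 in rows of the same mean. After quantile normalization 6 were above 0 and 7 below, with a median of -0.03, and after median centring and in edgeR all 13 were above 0. No GTF2 gene was at an unadjusted limma p under 0.05. Among gene-end rows of the same mean as all the genes described here, 11.5% were higher at that level and 1.4% lower. With only 13 genes, no difference from such rows can be read from this. GTF2B, the single subunit of TFIIB that brings in the polymerase, held 68.1, 49.3 and 49.99 CPM with DMSO and 65.6, 54.9 and 51.5 CPM with WM-1119. Replicate 1 was highest in both groups, which overlapped, and the log2 change of 0.05 was -0.07 with quantile normalization. GTF2A1 and GTF2A2, the TFIIA subunits that steady the TATA-binding protein on DNA, went from 176 ± 48.5 to 209 ± 11.2 and from 49.6 ± 6.59 to 63.1 ± 5.99 CPM (SD, n = 3 per group). Groups overlapped in both, and GTF2A1 was at -0.12 with DMSO replicate 3 alone. GTF2E2 and GTF2E1, which make up TFIIE, had log2 changes of 0.00 and 0.09, with an interval of -0.34 to 0.34 for GTF2E2; with quantile normalization they were -0.18 and -0.04. In TFIIH, which opens promoter DNA and repairs DNA, GTF2H1 went from 116 ± 16.6 to 143 ± 7.02 CPM (SD, n = 3 per group) with groups apart. GTF2H4, whose row lies beside VARS2, went from 52.1 ± 4.95 to 46.5 ± 6.90 CPM (SD, n = 3 per group). Its log2 change of -0.17 was 0.60 with median centring and 0.21 in edgeR.

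GTF2I encodes TFII-I, a signal-dependent factor whose gene lies in the Williams syndrome region of chromosome 7. Its row at 74656205 to 74659113 held 120, 159 and 199 CPM with DMSO and 177, 198 and 204 CPM with WM-1119. Only DMSO replicates 1 and 2 were below all WM-1119 libraries; the log2 change of 0.30 was -0.05 with DMSO replicate 3 alone. The neighbouring relative GTF2IRD1 had a row of only 418 bp, which held 11.1, 1.54 and 1.74 CPM with DMSO and 5.50, 1.40 and 1.10 CPM with WM-1119. Replicate 1 was highest in both groups. In DMSO replicate 1 this value was 8 reads and in DMSO replicate 2 it was 2, under the 3 reads used as the limit for a count of 0. The log2 change of -0.45 ± 0.59 (SE) was the lowest of the 67, turned positive with quantile normalization (0.20), median centring (0.32) and edgeR (0.23), and was 0.28 without DMSO replicate 1.

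All 14 TAF genes had a row, 11 above 0 and 3 below (9 and 5 after quantile normalization, 14 and 0 after median centring and in edgeR), with a median of 0.20, beside 0.16 for rows of the same mean. TAF6 and TAF9 encode a histone-fold pair of TFIID. TAF6 held 59.8, 64.7 and 97.3 CPM with DMSO and 83.2, 103 and 110 CPM with WM-1119, and its log2 change of 0.44 ± 0.18 (SE; adjusted p by limma = 0.344) was 0.01 with DMSO replicate 3 alone. DMSO replicate 3 lay above WM-1119 replicate 1. TAF9 had the highest TAF mean, with 146 ± 33.2 and 175 ± 5.50 CPM (SD, n = 3 per group), and was at -0.07 with DMSO replicate 3 alone. TAF11 held 101.5, 102 and 132 CPM with DMSO and 179, 138 and 128 CPM with WM-1119, so that only WM-1119 replicate 1 stood well above the rest. Its partner TAF13 had the lowest TAF mean, at 27.9 ± 4.34 and 26.1 ± 2.92 CPM (SD, n = 3 per group), and its log2 change of -0.09 was 0.03 with quantile normalization. TAF1, the largest TFIID subunit, held 29.2, 45.4 and 60.7 CPM with DMSO and 53.5, 54.8 and 57.7 CPM with WM-1119, where DMSO held both the lowest and the highest library. TAF15, an RNA-binding protein, went from 71.6 ± 10.8 to 75.5 ± 7.02 CPM (SD, n = 3 per group).

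TAF12, a histone-fold partner of TAF4 that also serves in the SAGA coactivator, had groups apart in the lower direction. Its row at chromosome 1 position 28647841 to 28649382 held 30.6, 39.3 and 30.7 CPM with DMSO and 29.1, 24.8 and 28.3 CPM with WM-1119. The lowest DMSO library and the highest WM-1119 library lay close together. The log2 change was -0.28 ± 0.23 (SE; adjusted p by limma = 0.497), and was 0.50 with median centring and 0.18 in edgeR. Inside the gene, at 28641746 to 28644907, lay a stronger row with a mean of 93.2 CPM, which the distance of 1 kb left out. It held 80.6, 77.02 and 110 CPM with DMSO and 91.6, 97.9 and 102 CPM with WM-1119, with a log2 change of 0.14 and overlapping groups.

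Rows inside the genes and away from coding gene ends numbered 60 in 27 of the genes, mostly narrow and weak, and 52 were tested. Of these 4 were above 0 and 48 below as deposited, 16 and 36 after quantile normalization, 13 and 39 in edgeR, but 32 and 20 after median centring. Their median of -0.64 was -0.14, -0.52 and 0.13 in turn. At an unadjusted limma p under 0.05 stood 10 of the 52, all lower, beside 13.9% lower and 0.515% higher among all tested rows away from coding gene ends, and 0 passed the adjusted threshold. All rows away from coding gene ends had a median of -0.62, of which 28841 of 31663 were below 0; after median centring 11222 were, with a median of 0.15. Of the 9 rows inside the genes that reached 10 CPM, 2 were above 0 and 7 below, with a median of -0.08 (0.69 after median centring and 0.31 in edgeR), beside -0.30 for all such rows of that strength. One of the 9, inside GTF2I at chromosome 7 position 74659581 to 74661459, held 29.2, 34.7 and 20.9 CPM with DMSO and 18.7, 17.2 and 16.8 CPM with WM-1119. All WM-1119 libraries were below all DMSO libraries, with a log2 change of -0.63 ± 0.27 (SE; adjusted p by limma = 0.351). Of all 5003 rows away from coding gene ends that reached 10 CPM, 922 had groups apart in the lower direction. After median centring all 9 rows, this one among them, were above 0. The caution given above about copies of GTF2I applies to this row as well. MED25 and MED26 held 8 rows inside the gene each. The 2 strongest in MED26 held 36.1 and 36.4 CPM on average, with log2 changes of -0.08 and -0.24.

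Genes of neighbouring complexes, from a list of 124 that the symbol rule leaves out, had similar values. Of these 118 had a tested row, all but 17 of them above 0 (75 above and 43 below after quantile normalization, and all above 0 in edgeR), with a median of 0.20 (0.04 after quantile normalization) and 0 past the adjusted threshold. At an unadjusted limma p under 0.05 were 12 higher, which is 10.2%, and 0 lower; of gene-end rows with the same mean as these genes 15.1% were higher, 83.4% were above 0 and the median was 0.19. The PAF1 row is the MED29 row. How the values of this list move with the choice of DMSO libraries is not given here, so the limit seen for the 67 genes may hold for them too. Above 0 were 15 of 16 genes of SAGA, a coactivator that acetylates histones, 27 of 28 pausing and elongation factors, and 22 of 24 Integrator and termination factors, beside 86.6%, 86.8% and 84.01% of their rows of the same mean. Of the subunits of polymerases I and III, which make ribosomal and transfer RNA, 20 of 32 were, beside 81.1%. After quantile normalization these counts were 14, 19, 14 and 17. By the smallest p in each direction, SAGA gave TRRAP at 0.41 and SF3B5 at -0.02, elongation ELOA at 0.42 and LEO1 at -0.08, and Integrator and termination SSU72 at 0.42 and INTS4 at -0.26 (log2 change). Polymerases I and III gave POLR3C at 0.48 and POLR3GL at -0.22, and the regulators of the TATA-binding protein BTAF1 at 0.23 and TBPL1 at -0.05. Of the remaining TFIIH genes MNAT1 stood at 0.52 and of the relatives of the 67 genes TAF4B at 0.24. TBP itself was at 0.15 ± 0.15 (SE; adjusted p by limma = 0.567).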

How the data were processed

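H3K9ac libraries from MOLM-13 cells, 3 with DMSO and 3 with WM-1119, were compared; titles gave groups and numbers. Of 12 samples, the 6 input samples were not analysed here. Bowtie2, SAMtools, MACS2, bedtools and hg38 are named in the submitters' processing notes; versions, roles, the merging of regions and the handling of duplicates are not given in the sources used here. Although the authors named the deposited table TPM, its values are CPM over the listed regions, with a total of 1000000: up to 100 reads, 100% of values differed from a whole multiple of 1 step per library by at most 0.02 reads. The step of WM-1119 replicate 2 is close to a round value, so that library stayed out of the count test. Starts were taken as counted from 0, and 1 was added.

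Changes were fitted on log2(CPM + 1) by limma 3.58.1 in R 4.3.3 (eBayes, trend and robust on). Rows needed a mean of at least 1 CPM, treatment was the sole term, and Benjamini-Hochberg adjustment ran over 44763 rows. This scale understates the change of weak rows. The planned design assumed TPM, and CPM took the same test. edgeR 4.0.16 (quasi-likelihood, TMM) was run on recovered reads of 5 libraries. The limma fit was tested on simulated data. A count of 0 allows 0.236 to 4.17 CPM (3 reads), for counting error only. Python 3.11.15, pandas 2.3.3, numpy 2.4.6 and matplotlib 3.10.9 made tables and figures.

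The genes, lists and tests were chosen with earlier results of these data known. Genes were placed by the GRCh38.p14 gene table of RefSeq, where strand is not listed. Genes named were the highest and lowest mean of each role group, the 4 smallest p per direction, 8 fixed genes, the 4 strongest shared rows and the smallest p per direction of each related list. Others, such as MED4, MED7, MED9, MED15, MED25, MED30 and TAF2, were chosen after their values were seen. Alternatives were pseudocounts of 0.1 and 5, other filters, scalings, weights, distances and libraries left out. Replicate numbers were not used to pair the samples in the main fit, since the labels do not say that a number marks a shared culture or day.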

Additional observations from a re-analysis of the deposited data

How the results depend on the processing

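The count of 27 rows called among all tested rows depended on the setting. It was 34995 with array weights (limma's estimate, which stopped before it converged), 496 with a replicate block, 2 among rows of at least 10 CPM, 2 with median centring and 1 with quantile normalization. It was 0 in limma without trend and robust, without DMSO replicates 1 and 2, and in edgeR, where 350 rows were higher and 1773 lower at p under 0.05 before adjustment. With 1 library left out it ran from 0 to 19600. For the 67 genes the count of 0 was 43 with array weights (36 higher, 7 lower), and 0 to 24 with 1 library left out, the 24 coming without DMSO replicate 3. The 43 stand beside 34995 of all 44763 tested rows called with array weights, whose split by direction is not given here. They cannot be read as a result about these genes. The replicate block left the count for the 67 genes at 0. That fit put 23 genes at an unadjusted limma p under 0.05, all higher. The share of other rows in the same fit is not given here, so the count cannot be read as a result about these genes. Same-numbered libraries had correlations of 0.22, 0.05 and 0.33 in their deviations, and libraries of different numbers had -0.27 to 0.055. Only DMSO replicate 2 correlated better with another number, at 0.055 with WM-1119 replicate 1 beside 0.053 with its own. Whether the numbers mark a shared culture or day is not known. The median log2 change of 0.17 was 0.52 in edgeR, 0.94 with median centring, 0.10 with quantile normalization and 0.00055 without DMSO replicates 1 and 2, and 0.096 to 0.24 with 1 library left out. The offset of 0.024 was -0.027 without DMSO replicates 1 and 2, and ran from -0.00078 to 0.048 with 1 library left out. Other distances, filters and pseudocounts and unshared rows alone moved neither the median nor the offset by more than the spread between libraries, and 30 or 300 nearest rows did not so move the offset. Median centring aside, the cause of these shifts was not tested.

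Among 37 named genes the sign of the log2 change turned in 17 without DMSO replicates 1 and 2: GTF2A1 -0.12, GTF2E1 -0.16, GTF2I -0.051, GTF2IRD1 0.23, MED1 -0.20, MED20 -0.094, MED22 -0.18, MED6 0.015, POLR2A -0.20, POLR2B -0.097, POLR2C -0.091, POLR2D -0.0035, POLR2G -0.024, TAF1 -0.13, TAF13 0.13, TAF15 -0.13 and TAF9 -0.073. It turned in 11 with quantile normalization: GTF2B -0.074, GTF2E1 -0.042, GTF2E2 -0.18, GTF2IRD1 0.20, MED1 -0.060, MED12 0.050, MED20 -0.092, MED6 0.18, POLR2A -0.070, TAF13 0.029 and TAF15 -0.054. It turned in 8 with median centring, which adds the same 0.77 to every row: GTF2H4 0.60, GTF2IRD1 0.32, MED12 0.72, MED6 0.54, POLR2I 0.55, POLR2K 0.63, TAF12 0.50 and TAF13 0.68. In edgeR it turned in 8: GTF2H4 0.21, GTF2IRD1 0.23, MED12 0.32, MED6 0.099, POLR2I 0.18, POLR2K 0.31, TAF12 0.18 and TAF13 0.39. With array weights it turned in 6: GTF2E1 -0.092, GTF2E2 -0.087, GTF2IRD1 0.064, MED12 0.073, MED27 -0.068 and POLR2M -0.0058. With 1 library left out, the genes whose sign turned ran as follows: GTF2B -0.052 to 0.20, GTF2E1 -0.13 to 0.22, GTF2E2 -0.064 to 0.049, GTF2IRD1 -0.96 to 0.28, MED1 -0.0017 to 0.22, MED12 -0.14 to 0.024, MED22 -0.023 to 0.40, MED27 -0.0010 to 0.085, MED31 -0.081 to 0.47, TAF13 -0.20 to 0.016 and TAF15 -0.024 to 0.19. Depth limits DMSO replicates 1 and 2 most, where a gene's row held a median of 43 and 82 reads.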
